A study of Mus musculus with 3 samples.

Results

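Basement-membrane-high wells held the single mouse embryonic stem cells with the largest share of transcripts from 6 genes of the basement membrane: Sparc, Lama1, Lamb1, Lamc1, Col4a1 and Col4a2. The score of a well was the summed unique molecular identifiers (UMIs) of the 6 genes over all its gene UMIs. Within each plate and cell type, the top 5% of wells by score were called high and the lower 50% rest. Of 4610 wells that held a cell of the 3 types, 3368 had at least 1000 detected genes, under 20% mitochondrial UMIs and at least 12000 gene UMIs. Of these, 173 were high, 1686 were rest, and 1509 lay between and entered neither class. Because the wells were chosen by the measured UMIs of these 6 genes, the genes' own difference between the classes is given as a description.

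The cells were derived from the blastocyst. Each of 3 plates held deleted cells (Mll1-/-), cells under Mll1 inhibition (inhibited cells) and Mll1fl/fl control cells, and the genotype given for every plate is Mll1fl/fl with Cre-ER TM on C57BL/6J. Mll1, now named Kmt2a, encodes a methyltransferase of histone H3 lysine 4. The inhibitor, its dose, the treatment times, the deleted exons and the number of cell lines are not given in the sources used here. Whether each plate had its own culture is not given either, and spread between plates may therefore be purely technical. The p-values for high against rest wells reflect spread among the 9 combinations of plate and cell type. That spread mixes plates, cell types and the sampling of wells, and the 3 cell types on a plate share that plate.

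Basement membranes are sheets of extracellular matrix under epithelia, built on networks of laminin and type IV collagen. In the mouse embryo, primitive endoderm gives rise to parietal endoderm, which secretes a thick basement membrane rich in laminin-111, type IV collagen and Sparc. Other epithelia lay down basement membranes as well, and cultures of embryonic stem cells can hold a minority of cells that have left the pluripotent state.

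UMIs were summed over the wells of each plate, cell type and class, which gave 9 pairs of sums. A pair held 14 to 26 high wells and 138 to 251 rest wells, and a sum held 953491 to 2231021 UMIs for high and 11883332 to 20994311 UMIs for rest. The median well had 35030 to 74710 UMIs in high and 41090 to 67850 UMIs in rest, with more in high in 3 of 9 pairs. The median mitochondrial share was 3.16 to 4.95% in high and 3.00 to 4.23% in rest, higher in high in 8 of 9 pairs. Cells had been dispensed from 24 source wells over the plates, and 1.80 to 9.09% of the wells of a source were high. Plates shared 436 to 503 well barcodes pairwise, which mark the same chip positions. The targeted gene Kmt2a (chromosome 9, 44803355 to 44881296, GRCm38/mm10) had 50.8, 36.2 and 34.8 CPM (counts-per-million) in the rest sums of deleted cells on plates 1 to 3, 41.7, 39.1 and 29.0 CPM in inhibited cells, and 49.4, 46.7 and 58.2 CPM in control cells. These counts do not check the genotype, because neither the deleted exons nor the counted end of the transcript is given.

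Col4a1 and Col4a2 encode the paired chains of the most widespread type IV collagen and lie head to head on chromosome 8. Their start regions are shown because these genes differed most among the 6 and their promoter windows share a stretch of sequence. Each runs 5′ to 3′ on the gene's own strand, 250 bases before to 50 bases after the RefSeq start (GRCm38.p6), Col4a1 on the minus strand at chr8:11312777-11313076 and Col4a2 on the plus strand at chr8:11312555-11312854. Capitals mark the 78 bases that both windows hold, on opposite strands.
Col4a1: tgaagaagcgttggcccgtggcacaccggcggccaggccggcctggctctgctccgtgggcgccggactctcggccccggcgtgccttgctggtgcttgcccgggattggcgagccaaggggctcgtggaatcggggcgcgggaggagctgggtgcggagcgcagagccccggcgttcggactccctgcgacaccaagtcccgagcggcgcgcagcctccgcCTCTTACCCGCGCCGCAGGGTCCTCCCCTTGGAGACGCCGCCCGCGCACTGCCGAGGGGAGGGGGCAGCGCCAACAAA
Col4a2: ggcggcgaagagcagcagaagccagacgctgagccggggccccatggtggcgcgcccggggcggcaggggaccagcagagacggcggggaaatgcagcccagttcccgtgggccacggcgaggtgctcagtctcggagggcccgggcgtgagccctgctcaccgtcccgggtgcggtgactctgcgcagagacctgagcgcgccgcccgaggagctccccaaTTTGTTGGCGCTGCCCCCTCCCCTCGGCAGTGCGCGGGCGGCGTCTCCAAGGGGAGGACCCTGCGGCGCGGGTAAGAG
The start sites lie 21 bases apart. Both windows hold CCAAT and GGGCGG, searched on both strands, which 37.4% and 35.7% of all 32851 promoter windows of this length also hold, and 37.9% and 64.9% of the 10652 windows of tested genes. Neither window holds GATAAG or TGAGTCA, which 7.44% and 5.20% of all windows hold, and 4.75% and 3.3% of those of tested genes.

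The scores of high wells formed the upper tail of a continuous range. The median score was 0.151 to 0.218% of gene UMIs in the high wells of the 9 pairs and 0.0112 to 0.0181% in their rest wells. The lowest high wells stood at 0.123 to 0.200%, next to highest wells outside the class at 0.122 to 0.195%. Of the 173 high wells, 158 lay between 0.1 and 0.3%, 7 exceeded 0.5% and the highest reached 1.29%.

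**Figure D1:**
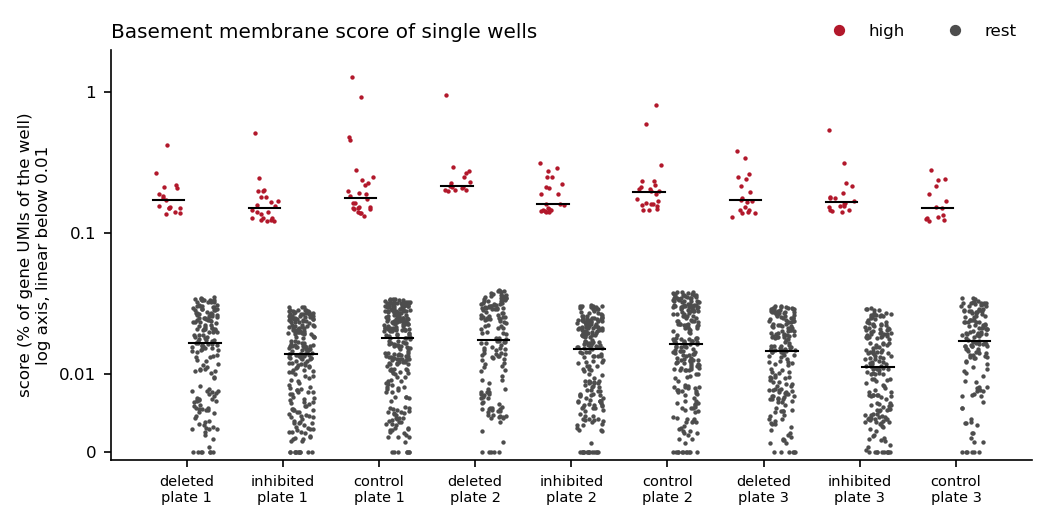
Share of each well's gene UMIs from the 6 score genes (vertical axis, percent, log scale that is linear near 0) for high and rest wells of each cell type and plate, with lines at the medians. The medians lie between 0.151 and 0.218% in high wells and between 0.0112 and 0.0181% in rest wells, and a few high wells stand far above the others.

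The 6 genes did not contribute alike. Of the score's UMIs, Sparc, a collagen-binding glycoprotein of the matrix, gave 57.9% in high wells and 76.0% in rest wells. Col4a1 gave 21.3% in high wells and 3.46% in rest wells, and Col4a2 gave 8.51% in high wells and 1.44% in rest wells. Sparc was found in 172 of 173 high wells and 1493 of 1686 rest wells, so its transcript was common in both classes. Col4a1 was found in 115 high wells and 331 rest wells, Lamb1 in 100 and 478, and Lama1 in 40 and 205. With every well thinned to 12000 UMIs, 58 of 173 high wells held both collagen transcripts, 40 held Col4a1 without Col4a2, 15 held Col4a2 without Col4a1, and 60 held neither. Of 1686 rest wells, 6 held both, 99 held Col4a1 without Col4a2, 41 held Col4a2 without Col4a1, and 1540 held neither.

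To test a score gene without its own use in the choice, the classes were rebuilt from the other 5 genes. Col4a2 (chromosome 8, 11312805 to 11449287) had 35.5, 153 and 319.6 CPM in high and 0.746, 5.08 and 8.51 CPM in rest (lowest, median and highest of 9 sums). Its log2 difference was 5.00 ± 0.37, adjusted p = 1.33e-07, higher in 9 of 9 pairs (SE, edgeR quasi-likelihood test with Benjamini-Hochberg adjustment, as for every adjusted p below). Col4a1 (chromosome 8, 11198423 to 11312826) had 74.3, 239 and 1075 CPM in high and 4.66, 12.5 and 23 CPM in rest (4.48 ± 0.33, adjusted p = 9.53e-08, higher in 9 of 9 pairs). High and rest sums did not overlap for either collagen. The annotated genes overlap by the few bases between their starts, and whether counting used the strand is not given.

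Sparc (chromosome 11, 55394500 to 55423183) had 538, 794 and 1161 CPM in high and 246, 304 and 375 CPM in rest (1.39 ± 0.12, adjusted p = 7.49e-07, higher in 9 of 9 pairs), again with no overlap. Among the chains of laminin-111, Lamb1, the beta 1 chain (chromosome 12, 31265234 to 31329644), had 19.8, 77 and 266 CPM in high and 17.2, 22.4 and 28.5 CPM in rest (1.96 ± 0.36, adjusted p = 0.00143, higher in 8 of 9 pairs). Lamc1, the gamma 1 chain (chromosome 1, 153218922 to 153332786), had 26.6, 50.9 and 203 CPM in high and 16.2, 22.7 and 38.4 CPM in rest (1.21 ± 0.31, adjusted p = 0.0122, higher in 8 of 9 pairs). The Lamc1 call was lost without plate 2 (1.36, adjusted p = 0.0594) and without plate 3 (0.75, adjusted p = 0.166). Lama1, the alpha 1 chain (chromosome 17, 67697259 to 67822647), had 0, 10.0 and 144 CPM in high and 2.92, 7.76 and 18.5 CPM in rest and did not pass (0.96 ± 0.88, adjusted p = 0.517, higher in 4 of 9 pairs). Its high sums ran on both sides of its rest sums. It passed with the top 10% of wells as high (1.36, adjusted p = 0.0246) and with wells thinned to 12000 UMIs (1.56, adjusted p = 0.00878).

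Outside the 6 genes, 11667 genes were tested. At an adjusted p under 0.05, 820 genes (7.03% of those tested) were higher in high wells and 872 (7.47%) were lower. Counts of called members in the gene lists below are to be read beside these shares. The median log2 difference of all tested genes was -0.17, and for 281 genes (2.41%) the 9 high and 9 rest sums did not overlap. Without the wells richest in keratin, described further on, 346 genes were higher and 250 lower. With wells under 10% mitochondrial UMIs, 830 were higher and 746 lower. Without single plates, the counts were 406 to 728 higher and 244 to 571 lower.

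Further genes of the basement membrane and matrix were higher. Of 27 listed genes, 17 were abundant enough to test, 10 were higher, none was lower and the median log2 difference was 1.11. Tinagl1, a secreted protein of basement membranes (chromosome 4, 130164454 to 130175122), had 15.1, 79 and 114 CPM in high and 4.05, 7.66 and 12.4 CPM in rest (3.06 ± 0.31, adjusted p = 2.13e-06). Lama5, the laminin alpha 5 chain of many epithelia, had 53.5, 73.4 and 152 CPM in high and 29.8, 38.9 and 49.8 CPM in rest (0.96 ± 0.20, adjusted p = 0.00311). High and rest sums did not overlap for either gene, and both passed without each plate in turn and without the keratin-rich wells.

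A further 7 called matrix genes did not keep their call without plate 1 or without the keratin-rich wells. They were the laminin-binding nidogen Nid1 (2.79 ± 0.51, adjusted p = 0.00113), the proteoglycans Hspg2 or perlecan (1.08 ± 0.24, adjusted p = 0.00497) and Agrn or agrin (1.11 ± 0.30, adjusted p = 0.0168), Fras1, which helps to anchor epithelia (2.69 ± 0.63, adjusted p = 0.00741), fibronectin, Fn1 (1.03 ± 0.31, adjusted p = 0.0331), and the laminin chains Lamb3 (2.69 ± 0.85, adjusted p = 0.0412) and Lama3 (2.76 ± 0.90, adjusted p = 0.0474). Without plate 1, Nid1, Hspg2, Agrn, Fras1, Fn1 and Lamb3 did not pass (adjusted p = 0.061, 0.0913, 0.21, 0.0966, 0.444 and 0.157 in that order), and Lama3 was too low to test. Without the keratin-rich wells, the first 5 did not pass (adjusted p = 0.0722, 0.0678, 0.178, 0.145 and 0.817), and Lamb3 and Lama3 were too low to test. Agrn, Fn1, Lamb3 and Lama3 also did not pass without plate 2 (adjusted p = 0.0566, 0.0515, 0.123 and 0.325), nor Hspg2 and Lamb3 without plate 3 (adjusted p = 0.0563 and 0.102). A lost call was not always a smaller difference. Hspg2 had log2 differences of 1.06 without plate 1 and 1.03 without the keratin-rich wells, and Fn1 had 0.56 and 0.18. Without plate 2, Agrn had 1.32 and Fn1 1.31. Lama3 and Lamb3 averaged 0.881 and 1.36 CPM in rest, so they could be tested mainly through their high sums. Called list members outside the naming rule, such as Hspg2, were named after their values were seen.

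Genes that fold, modify and crosslink collagen and laminin were also higher. Of 25 listed genes, 23 were tested, 8 were higher and none lower, with a median log2 difference of 0.71. Serpinh1, the collagen chaperone HSP47 (chromosome 7, 99345376 to 99353239), had 47.2, 104 and 171 CPM in high and 16.7, 25.1 and 33.1 CPM in rest (2.06 ± 0.22, adjusted p = 5.55e-06). Hsp90b1, a chaperone of the endoplasmic reticulum, had 663, 817 and 930.2 CPM in high and 409, 528 and 596 CPM in rest (0.56 ± 0.08, adjusted p = 0.000185). Both rose without overlap between the groups, the collagen chaperone by the larger factor. Hspa5, another chaperone there, averaged 1196 CPM in high and 710 CPM in rest (0.70 ± 0.14, adjusted p = 0.00237). Plod3, a lysyl hydroxylase of collagen, averaged 43.6 CPM in high and 14 CPM in rest (1.55 ± 0.29, adjusted p = 0.00137), and Loxl2, a lysyl oxidase that crosslinks collagen, averaged 21.4 CPM in high and 2.21 CPM in rest (3.06 ± 0.61, adjusted p = 0.00217). These 5 passed without each plate in turn, but Plod3 did not pass without the keratin-rich wells (adjusted p = 0.0864) or without 7 wells with endoderm regulators, both described further on (0.0821). The prolyl 4-hydroxylase subunits P4ha2 (1.85 ± 0.52, adjusted p = 0.021) and P4hb (0.71 ± 0.15, adjusted p = 0.00291) and the disulfide isomerase Pdia6 (0.53 ± 0.12, adjusted p = 0.00644) were called too. P4hb and Pdia6 did not pass without plate 1 (adjusted p = 0.0596 and 0.0771), nor P4ha2 without plate 2 (0.113) or plate 3 (0.188). P4ha2 and P4hb also did not pass without the keratin-rich wells (0.385 and 0.0856), nor P4ha2 without the 7 wells (0.076).

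Receptors for the matrix moved in the same direction. Of 17 listed integrins and receptors, 14 were tested, 7 were higher and none lower, with a median log2 difference of 0.80. Itgb1, the integrin beta 1 chain shared by most laminin and collagen receptors (chromosome 8, 128685654 to 128733200), had 487, 592 and 954 CPM in high and 250.3, 326 and 365 CPM in rest (1.13 ± 0.10, adjusted p = 6.17e-07). Cd9, a tetraspanin that associates with integrins, had 582, 813 and 1514 CPM in high and 231, 305 and 405 CPM in rest (1.51 ± 0.11, adjusted p = 5.18e-08). The groups did not overlap for either gene. The alpha chains Itgav (2.03 ± 0.30, adjusted p = 0.000161), Itga3 (0.95 ± 0.16, adjusted p = 0.000471) and Itga6 (1.14 ± 0.21, adjusted p = 0.00112) were higher and passed without each plate in turn. The collagen receptor kinase Ddr1 (1.28 ± 0.25, adjusted p = 0.00203) did not pass without plate 1 (0.0625), and the laminin receptor dystroglycan, Dag1 (1.05 ± 0.29, adjusted p = 0.0181), passed neither without plate 1 (adjusted p = 0.19) nor without plate 2 (0.179). Without the keratin-rich wells, 5 of the 7 passed, and Itga6 (log2 difference 0.57, adjusted p = 0.388) and Dag1 (0.89, adjusted p = 0.135) did not.

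**Figure D2:**
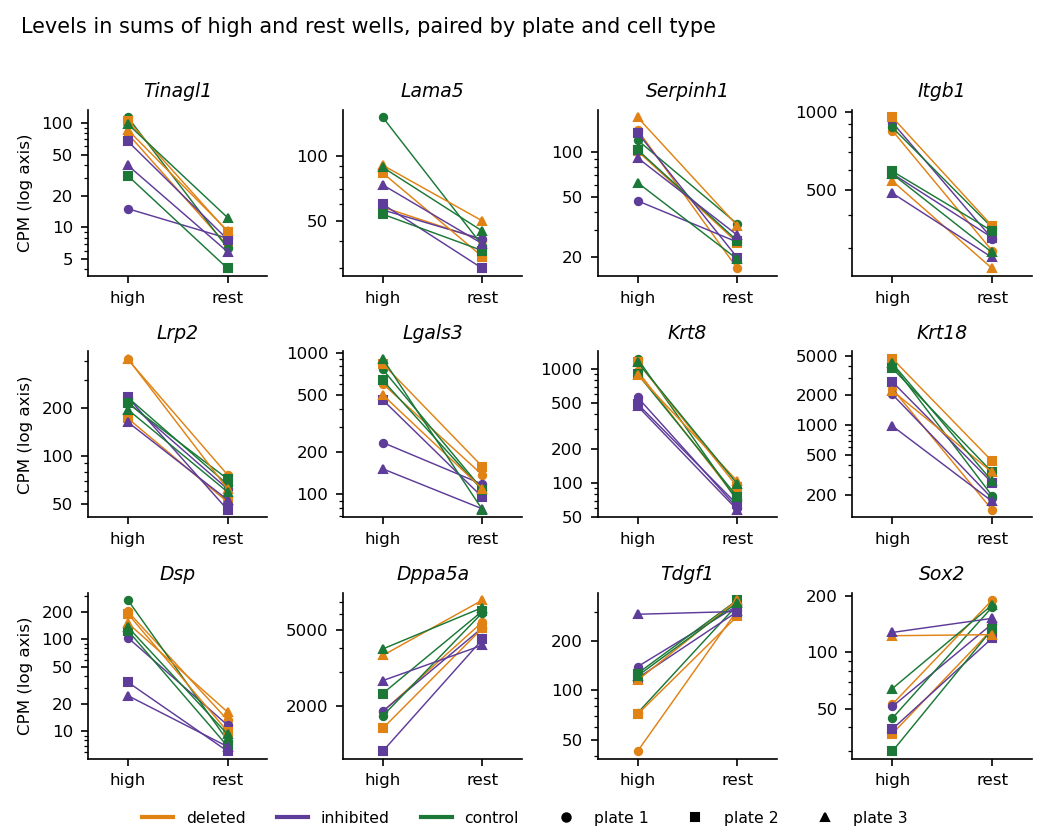
Level of 12 genes (counts-per-million, log axis) in each sum of high wells and in the rest sum of the same plate and cell type, joined by a line, with colours for cell types and symbols for plates. Tinagl1, Lama5, Serpinh1, Itgb1, Lrp2, Lgals3, Krt8, Krt18 and Dsp were higher in high wells in 9 of 9 pairs, and Dppa5a, Tdgf1 and Sox2 were lower in 9 of 9.

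Whether the class carried endoderm markers was examined with 3 lists. Of 13 regulators and early markers of primitive endoderm, 4 were tested and 2 were higher, and the other 9, among them Gata6, Sox17, Foxa2, Hnf4a and Pdgfra, were too low to test. Lrp2, the endocytic receptor megalin (chromosome 2, 69424340 to 69586065), had 164, 219 and 411 CPM in high and 45.9, 62.1 and 76.3 CPM in rest (1.98 ± 0.15, adjusted p = 9.37e-08), with no overlap. Its UMIs were found in 133 of 173 high wells and also in 977 of 1686 rest wells. Dab2, an adaptor of endocytosis, had 1.06, 43.5 and 53.9 CPM in high and 0.845, 3.8 and 11.7 CPM in rest (2.87 ± 0.67, adjusted p = 0.0076), and it passed neither without plate 1 (adjusted p = 0.0766) nor without plate 2 (0.0836). The defining transcription factor Gata4 had 0, 3.62 and 20.2 CPM in high and 0.0546, 0.52 and 3.02 CPM in rest and did not pass (2.33 ± 0.91, adjusted p = 0.097), nor did Sox7, another transcription factor of this lineage (-0.85 ± 0.84, adjusted p = 0.547).

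Of 11 parietal endoderm markers, 4 were tested and 3 were higher. Lgals3, the lectin galectin-3, had 151, 603 and 906 CPM in high and 77.6, 108 and 156 CPM in rest (2.23 ± 0.21, adjusted p = 1.39e-06). The coactivator Cited1 (1.28 ± 0.26, adjusted p = 0.00267) and the tissue plasminogen activator Plat (3.23 ± 0.82, adjusted p = 0.0126) did not pass without plate 1 (adjusted p = 0.0848 and 0.115), and Vim, an intermediate filament, did not pass (0.33 ± 0.18, adjusted p = 0.228). Of 16 visceral endoderm markers, 6 were tested, none was higher and 3 were lower: the apolipoproteins Apoe (-0.52 ± 0.10, adjusted p = 0.00175) and Apoa2 (-1.73 ± 0.51, adjusted p = 0.0293) and the vitamin D binding protein Gc (-0.61 ± 0.18, adjusted p = 0.0321). None of the 3 passed without the keratin-rich wells (adjusted p = 0.298, 0.0728 and 0.178), and Apoa2 and Gc did not pass without plate 1 (0.0596 and 0.481) or plate 2 (0.203 and 0.149), nor Apoa2 without plate 3 (0.106). Of 10 mesendoderm and definitive endoderm markers, the 2 tested did not pass: Wnt3 (0.87 ± 0.65, adjusted p = 0.413) and Eomes (-0.32 ± 0.81, adjusted p = 0.829). Of the 8 primitive and parietal endoderm genes tested, 5 were thus higher and none lower. Of these 5, Dab2 and Plat were not called with wells thinned to 12000 UMIs. Lgals3 stood highest in the keratin-rich high wells described further on (1002 CPM). It had 457 CPM in the 7 wells with endoderm regulators, 337 in the other high wells and 110 in rest wells. Of the 9 primitive endoderm genes too low to test, 7 averaged higher in high sums. Hnf4a (0 CPM in high, 0.0254 in rest) and Cubn (0.0508 in high, 0.399 in rest) averaged lower. The transcription factor Gata6 had 1.56 CPM in high and 1.15 CPM in rest (7 of 173 high and 29 of 1686 rest wells). With wells thinned to 12000 UMIs, Gata6 was found in 1 of 173 high and 14 of 1686 rest wells. Pdgfra, a receptor of this lineage, had 5.69 CPM in high and 0.086 CPM in rest, with UMIs in 7 of 173 high and 4 of 1686 rest wells. Foxq1 had 3.27 CPM in high and 0.255 CPM in rest (12 of 173 high and 21 of 1686 rest wells), Amn, the partner of cubilin, had 6.85 CPM in high and 1.36 CPM in rest (15 of 173 high and 58 of 1686 rest wells), and Sox17 had 2.67 CPM in high and 0.655 CPM in rest (5 of 173 high and 23 of 1686 rest wells). The parietal marker Srgn, a proteoglycan core protein that was also too low to test, had 14.8 CPM in high and 0.102 CPM in rest (4 of 173 high and 6 of 1686 rest wells). Of the other parietal markers too low to test, Snai1 (0.568 CPM in high, 0.833 in rest) and Stra6 (0 in high, 0.0144 in rest) averaged lower in high. Thbd, Pth1r, Fst and Plau averaged higher. UMIs of these genes were thus found in few wells of either class, and the class is called here by its score.

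A few wells did carry the regulators. At least 4 of the 12 primitive endoderm genes other than Lrp2 had UMIs in 7 of 3368 wells, and all 7 were high wells. This count was chosen after the values were seen and is a description. At least 3 of the 12 were found in 11 of 173 high, 8 of 1509 intermediate and 2 of 1686 rest wells. The 7 wells were deep, with a median of 148491 UMIs against 52216 UMIs in rest wells, and whether any held more than 1 cell was not tested. With every well thinned to 12000 UMIs, at least 4 were found in 2 high wells, 0 intermediate wells and 0 rest wells, and at least 3 in 5 high wells, 1 intermediate well and 0 rest wells. Of the 7, 2 were deleted, 1 was inhibited and 4 were control cells, and 2, 2 and 3 came from plates 1 to 3.

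In these 7 wells, Lama1 UMIs were found in 7 of 7 and summed to 594 CPM over the wells' gene UMIs, against 3.35 CPM in rest wells. Col4a1 reached 1467 CPM, against 5.91 in rest, and Lamb1 319.8 CPM, against 12.9 in rest. Lama1, Col4a1 and Lamb1 are score genes, so the choice of high and rest wells in part fixes these differences. The transcription factors Gata4 (62.8 CPM, against 1.19 in rest) and Sox17 (39.3, against 0.653) and the receptor Pdgfra (83, against 0.0893) partly defined them. These were uneven, with 0 to 15 UMIs of Gata4, 0 to 19 of Sox17 and 0 to 52 of Pdgfra in a well. Gata6 had at most 3 UMIs in a well, and Hnf4a and Cubn had 0 in all 7. The control cell of plate 1 with the highest score of the 7 held 311 Lama1, 752 Col4a1, 13 Gata4, 19 Sox17 and 47 Dab2 UMIs and no Nanog UMI. Desmoplakin, Dsp, stood at 8.98 CPM in the 7 wells and 9.68 in rest. The keratins Krt8 and Krt18 stood higher in the 7 wells, at 605 and 828 CPM, than in rest, at 76.9 and 260 CPM. Without the 7 wells, 771 genes were higher and 822 lower between high and rest. The 7 wells were chosen in part by Dab2 UMIs, which in part fixes its result there, and Dab2 was not called (adjusted p = 0.0924). Nor were Dppa4, Tcf15, Spry2 and Kif11, 4 genes described further on (adjusted p = 0.0793, 0.0637, 0.0619 and 0.0646).

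A larger set of high wells was rich in keratins of simple epithelia. The top 5% of wells of each plate and type by the summed share of Krt7, Krt8, Krt18 and Krt19 held 55 of 173 high wells (31.8%), 104 of 1509 intermediate wells (6.89%) and 14 of 1686 rest wells (0.83%). None of the 7 wells above was among the 55. In the 55 wells, Lama1 was found in 4 and summed to 1.5 CPM, below the 3.35 of rest wells. The laminin chain Lamb3 (30.1 CPM, against 1.36 in rest) stood higher there, as did Dsp (245, against 9.68) and Col4a1 (669, against 5.91). Col4a1 and Lama1 are score genes, and the choice of high and rest wells used their UMIs. Gata4 stood at 0.429 CPM and Sox17 at 0. The remaining 111 high wells had 444 CPM of Krt8, 1042 CPM of Krt18, 109.5 CPM of Dsp, 269 CPM of Col4a1 and 37.8 CPM of Lama1. This division was also made after the values were seen and carries no test.

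**Figure D3:**
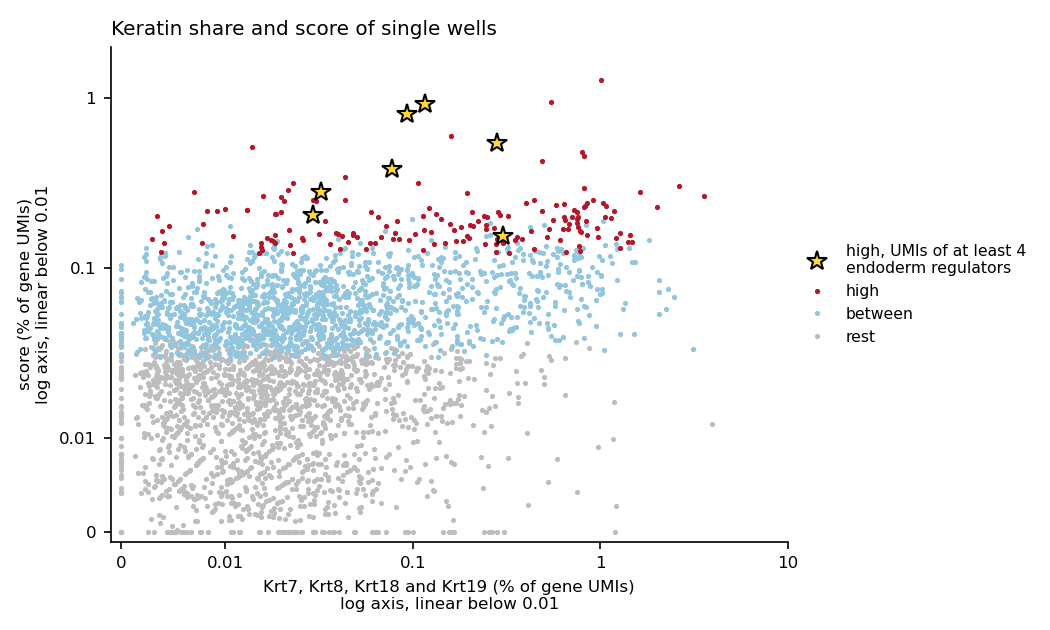
Share of gene UMIs from Krt7, Krt8, Krt18 and Krt19 against the share from the 6 score genes in each of 3368 wells, both in percent on log axes that are linear near 0; the 7 high wells with UMIs of at least 4 of 12 primitive endoderm genes are stars. Of the 173 high wells, 55 fall in the top 5% by keratin, and none of the 7 stars does.

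Over all high wells, the paired keratins of simple epithelia were higher in every pair. Krt18 (chromosome 15, 102028180 to 102032027) had 983, 2741 and 4696 CPM in high and 140.4, 263 and 435 CPM in rest (3.49 ± 0.16, adjusted p = 2.43e-10). Krt8 (chromosome 15, 101996698 to 102004482) had 474, 908 and 1236 CPM in high and 58.2, 72 and 104 CPM in rest (3.44 ± 0.13, adjusted p = 1.11e-11). Neither gene overlapped between the groups; keratins have near-identical pseudogene copies, and how reads that match several places were counted is not given. Krt7 (3.27 ± 0.28, adjusted p = 4.42e-07) and Krt19 (2.72 ± 0.26, adjusted p = 1.19e-06) were also higher. Of 14 listed trophectoderm and keratin genes, 12 were tested, 5 were higher and none lower, with a median of 1.20. Without the keratin-rich wells, Krt18 (2.29, adjusted p = 7.34e-10) and Krt8 (2.59, adjusted p = 2.49e-09) were still called and Krt7 was not (0.66, adjusted p = 0.57). Those wells were chosen by these same keratins, so the smaller differences without them are in part fixed by the choice. Cdx2, a defining transcription factor of trophectoderm, averaged 3.43 CPM in high and 3.58 CPM in rest and did not pass (-0.30 ± 0.57, adjusted p = 0.773), nor did Gata3, another such factor (1.07 ± 0.45, adjusted p = 0.128). The summed level of the 14 genes was 1652 to 6406 CPM in high and 320.9 to 652.1 CPM in rest.

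Fibroblasts, which serve as feeder cells and secrete matrix, were examined through 16 markers, of which 4 were tested and 2 were higher. These were the contractile cytoskeleton genes Tagln (3.19 ± 0.22, adjusted p = 4.32e-08) and Acta2 (3.61 ± 1.15, adjusted p = 0.0422), and Acta2 did not pass without plate 1 (adjusted p = 0.518) and was too low to test without plate 2. The other 2 tested, Twist1 (-1.20 ± 0.81, adjusted p = 0.352) and S100a4 (-0.37 ± 0.82, adjusted p = 0.805), did not pass. The summed level of the 16 was 268.1 to 1489 CPM in high and 41.5 to 88.5 CPM in rest. Most of it was Tagln, which alone averaged 483 CPM in high and 46.9 CPM in rest. Acta2 also did not pass without the keratin-rich wells (adjusted p = 0.248). The other 12 markers were too low to test. Among them, the genes of type I and type III collagen averaged under 1 CPM: Col1a1 had 0.471 CPM in high and 0.167 CPM in rest, Col1a2 had 0.0907 CPM in high and 0.0367 CPM in rest, and Col3a1 had 0.741 CPM in high and 0.0112 CPM in rest. The proteoglycan gene Dcn averaged 4.83 CPM in high and 0.406 CPM in rest, with UMIs in 5 of 173 high and 18 of 1686 rest wells. Thy1, which encodes a surface glycoprotein, averaged 4.06 CPM in high and 0.393 CPM in rest, with UMIs in 9 of 173 high and 13 of 1686 rest wells. These 5 averaged higher in high than in rest, as did Col5a1, Col5a2, Postn and Twist2. Pdgfrb averaged lower (0.101 CPM in high, 0.223 in rest), Lum was at 0 in both and Fap at 0 in high. The part of fibroblast RNA in the results was not tested. Of 10 blood and endothelial markers, Pecam1 alone was tested and it did not pass (-1.87 ± 0.86, adjusted p = 0.165).

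The 15 largest rises, among called genes with the same sign in 9 of 9 pairs and a mean of at least 10 CPM, were named by rule. Prss23, a serine protease (chromosome 7, 89507783 to 89527187), had 4.26, 106 and 185 CPM in high and 1.69, 2.13 and 6.75 CPM in rest (5.01 ± 0.51, adjusted p = 2.71e-06). Timp2, an inhibitor of matrix metalloproteinases, had 2.45, 19.97 and 65.3 CPM in high and 0.233, 0.491 and 0.748 CPM in rest (4.93 ± 0.58, adjusted p = 1.28e-05). Sums of high and rest overlapped for Prss23, through 1 low pair, and not for Timp2. Timp2 stood under 1 CPM in every rest sum and was abundant enough to test only through its high sums. That in part fixes its rise and its lack of overlap. Dsp, the desmosome plaque protein, had 24.5, 137 and 269 CPM in high and 6.07, 9.27 and 16.2 CPM in rest (3.60 ± 0.30, adjusted p = 2.64e-07). The desmosomal cadherin Dsc2 (3.94 ± 0.55), the junction protein gene Amot (3.70 ± 0.57), the cortical anchor gene Phldb2 (3.60 ± 0.26), the matrix glycoprotein Thbs1 (3.57 ± 0.36), the actin-severing gelsolin, Gsn (3.47 ± 0.30), and the small heat shock protein Cryab (3.47 ± 0.20) followed. Also among them were Fndc3b (3.88 ± 0.36), Nkain4 (3.76 ± 0.30), the amyloid precursor protein gene App (3.53 ± 0.43), Cyp1a1, a cytochrome P450 (3.61 ± 0.71), and Krt18. Cyp1a1 did not pass without plate 2 (adjusted p = 0.0546) or without the keratin-rich wells (log2 difference 1.48, adjusted p = 0.442).

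Genes of pluripotency were lower. Of 24 listed genes, 21 were tested, 10 were lower, none was higher and the median log2 difference was -0.86. Dppa5a, an RNA-binding protein of pluripotent cells (chromosome 9, 78367052 to 78368177), had 1155, 1868 and 3956 CPM in high and 4140, 5476 and 7126 CPM in rest (-1.36 ± 0.12, adjusted p = 5.94e-07). Tdgf1, the Nodal co-receptor Cripto, had 42.5, 118 and 290.5 CPM in high and 283, 327 and 355 CPM in rest (-1.58 ± 0.20, adjusted p = 3.38e-05). The core factor Sox2 had 29.9, 51.7 and 128 CPM in high and 119, 142 and 189.7 CPM in rest (-1.40 ± 0.22, adjusted p = 0.000294). The groups did not overlap for Dppa5a and overlapped slightly for the other two. At 12000 UMIs per well, Sox2 was found in 38.1% of high wells (95% exact binomial interval 30.9 to 45.8%, counting error only) and 62.2% of rest wells (59.8 to 64.5%). The nuclear receptor Nr0b1 (-2.35 ± 0.43, adjusted p = 0.00118) and the ligand Gdf3 (-1.24 ± 0.23, adjusted p = 0.00101) were lower in 9 of 9 pairs. These 5 passed without each plate in turn, and Gdf3 did not pass without the keratin-rich wells (0.0808). Nanog averaged 11.9 CPM in high and 23.7 CPM in rest and did not pass (log2 difference -1.55, adjusted p = 0.0605). The other 5 called genes, Pou5f1, Nodal, Utf1, Klf2 and Dppa4, had log2 differences of -0.86, -1.01, -0.97, -0.68 and -0.42, and none passed without plate 1 (adjusted p = 0.217, 0.0535, 0.159, 0.248 and 0.415) or without plate 2 (0.173, 0.114, 0.298, 0.0938 and 0.11). Nodal, Klf2 and Dppa4 also did not pass without plate 3 (0.229, 0.135 and 0.135). Without the keratin-rich wells, 4 of the 10 were called, and besides Gdf3 these 5 were not (adjusted p = 0.246, 0.169, 0.269, 0.149 and 0.293).

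Of 11 formative and primed epiblast genes, 8 were tested, 4 were lower and 1 was higher. The homeobox factor Otx2 had 0.664, 3.15 and 12.8 CPM in high and 10.1, 15.8 and 29.3 CPM in rest (-2.49 ± 0.53, adjusted p = 0.00381). The de novo DNA methyltransferases Dnmt3a (-0.94 ± 0.22, adjusted p = 0.00715) and Dnmt3b (-0.89 ± 0.23, adjusted p = 0.0141) and the transcription factor Tcf15 (-1.08 ± 0.34, adjusted p = 0.0388) were lower too, and the transcription factor Sox4 was higher (1.26 ± 0.33, adjusted p = 0.0159). None of the 5 passed without plate 1 (adjusted p = 0.0976, 0.0918, 0.0649, 0.287 and 0.235 in the order named). Tcf15 and Sox4 also did not pass without plate 2 (0.3 and 0.0784), nor Otx2 and Dnmt3b without plate 3 (0.0518 and 0.198). Without the keratin-rich wells, Otx2 alone of the 5 passed, and Dnmt3a, Dnmt3b, Tcf15 and Sox4 had adjusted p-values of 0.127, 0.265, 0.284 and 0.111.

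Of 14 genes of fibroblast growth factor signalling and its feedback, 12 were tested, 4 were lower and 1 was higher. The phosphatase Dusp6 (-1.13 ± 0.29, adjusted p = 0.0137), the ETS factors Etv4 (-1.26 ± 0.35, adjusted p = 0.019) and Etv5 (-1.07 ± 0.32, adjusted p = 0.0312) and the inhibitor Spry2 (-1.02 ± 0.33, adjusted p = 0.0429) were lower, and none of these 4 passed without plate 1 (adjusted p = 0.139, 0.144, 0.191 and 0.185) or plate 2 (0.142, 0.12, 0.108 and 0.183), nor without the keratin-rich wells (0.172, 0.178, 0.227 and 0.441). Etv4, Etv5 and Spry2 also did not pass without plate 3 (0.0559, 0.0881 and 0.114). The phosphatase Dusp9 was higher, with 104, 188 and 261 CPM in high and 59.3, 106 and 134 CPM in rest (0.93 ± 0.17, adjusted p = 0.000826), and passed without each plate in turn.

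The 10 largest falls were B230312C02Rik (-3.02 ± 0.41), the homeobox gene Gbx2 (-2.53 ± 0.43), Otx2, the septin gene Sept1 (-2.49 ± 0.47), ENSMUSG00000086967 (-2.39 ± 0.38), Nr0b1, the zinc finger gene Zscan18 (-2.33 ± 0.61), AI662270 (-2.21 ± 0.45), Enox1 (-2.21 ± 0.41) and Pipox, a peroxisomal oxidase (-2.17 ± 0.65). Their adjusted p-values lay between 5.34e-05 and 0.0306. Gbx2 had 0.664, 5.03 and 10.4 CPM in high and 18.1, 25.9 and 33.4 CPM in rest, with no overlap between the groups. Zscan18 did not pass without plate 1 (adjusted p = 0.0585) or plate 2 (0.161), AI662270 without plate 1 (0.0569), and Pipox without plate 2 (0.201) or plate 3 (0.117). AI662270 and Pipox also did not pass without the keratin-rich wells (0.0654 and 0.0613).

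**Figure D4:**
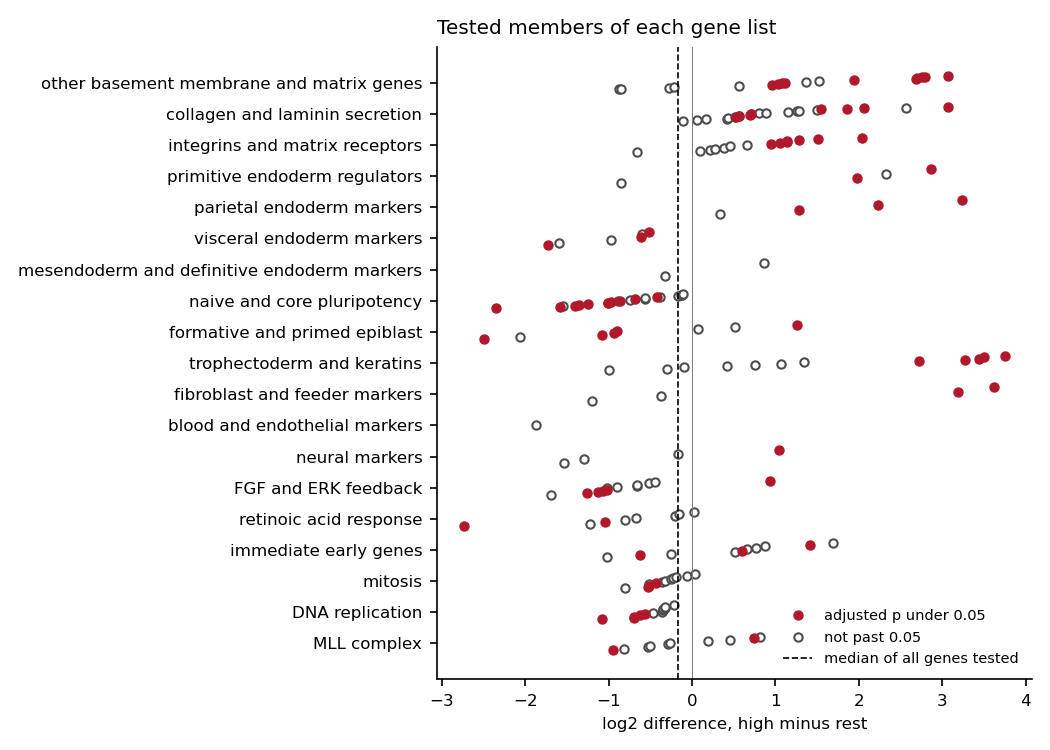
Log2 difference of high minus rest for each tested member of the 19 gene lists, with called members filled, others open and a dashed line at the median of all tested genes (-0.17). Called members lie to the right for matrix, secretion, receptor and keratin genes and to the left for pluripotency, visceral endoderm and DNA replication genes.

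Several genes of the cell cycle were lower. Of 12 DNA replication genes, all tested, 5 were lower and none higher, with a median of -0.41. Pcna, the sliding clamp of DNA polymerase, had 120.2, 207 and 376 CPM in high and 263, 344 and 432 CPM in rest (-0.69 ± 0.13, adjusted p = 0.00133). Rrm2 (-0.62 ± 0.12, adjusted p = 0.00183), a subunit of ribonucleotide reductase, the cyclin gene Ccne1 (-1.08 ± 0.21, adjusted p = 0.00191), and the helicase subunits Mcm5 (-0.69 ± 0.16, adjusted p = 0.00767) and Mcm7 (-0.56 ± 0.16, adjusted p = 0.025) were the others, and none of the 5 passed without plate 1 (adjusted p = 0.0633, 0.0544, 0.0582, 0.101 and 0.252). Mcm5 and Mcm7 also did not pass without plate 2 (0.0943 and 0.072), nor Mcm7 without plate 3 (0.148), nor both without the keratin-rich wells (0.138 and 0.33). Of 12 mitosis genes, 3 were lower and none higher, with a median of -0.34: Top2a (-0.51 ± 0.12, adjusted p = 0.00608), Cenpf (-0.43 ± 0.13, adjusted p = 0.0361) and Kif11 (-0.52 ± 0.17, adjusted p = 0.0442). None of these passed without plate 1 (adjusted p = 0.081, 0.184 and 0.325) or plate 2 (0.0916, 0.0719 and 0.0727), nor without the keratin-rich wells (0.192, 0.491 and 0.168). Cenpf and Kif11 also did not pass without plate 3 (0.207 and 0.178).

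Of 10 immediate early genes, which respond quickly to stimulation or handling, Fos (1.41 ± 0.30, adjusted p = 0.00349) and Dusp1 (0.60 ± 0.17, adjusted p = 0.0232) were higher and Ier2 (-0.62 ± 0.17, adjusted p = 0.0162) was lower. Over all tested genes, 7.03% were higher and 7.47% lower, and the lists in this paragraph are short. Without the keratin-rich wells, none of the 3 passed (adjusted p = 0.264, 0.6 and 0.17). Fos passed without each plate in turn, and Dusp1 and Ier2 passed neither without plate 1 (0.223 and 0.227) nor without plate 2 (0.231 and 0.0929). Of 10 retinoic acid response genes, 8 were tested and 2 were lower, the receptor Rarg (-1.05 ± 0.30, adjusted p = 0.0236) and the binding protein Crabp1 (-2.73 ± 0.80, adjusted p = 0.0269), neither of which passed without plate 1 (adjusted p = 0.133 and 0.145) or plate 2 (0.107 and 0.277), nor without the keratin-rich wells (0.292 and 0.149). Rarg also did not pass without plate 3 (0.117). Of 6 neural markers, 4 were tested and the intermediate filament gene Nes was higher (1.05 ± 0.25, adjusted p = 0.00873), though not without plate 1 (0.0721) or plate 2 (0.072), nor without the keratin-rich wells (0.116). The other 3, Sox1, Pax6 and Tubb3, had log2 differences of -1.29, -1.54 and -0.17 and did not pass. The median of the 4 was -0.73.

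Of 10 MLL complex genes, all tested, 1 was higher and 1 lower, near the shares of all tested genes (7.03% higher and 7.47% lower). Kmt2a had 20.9, 75.5 and 126 CPM in high and 29, 41.7 and 58.2 CPM in rest (0.74 ± 0.23, adjusted p = 0.0401), higher in 8 of 9 pairs, and deleted cells on plate 3 were the exception. It did not pass without plate 1 (0.87, adjusted p = 0.136) or plate 2 (0.51, adjusted p = 0.333), nor without the keratin-rich wells (0.49, adjusted p = 0.4). Dpy30, a subunit shared by these complexes, had 322, 528 and 901 CPM in high and 779, 1073 and 1227 CPM in rest (-0.95 ± 0.12, adjusted p = 2.14e-05), lower in 9 of 9 pairs, and passed without each plate in turn.

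Because the rule took the same share of wells in each type, the share of high wells cannot be compared between types, but the level of the score can. The median score of all wells that passed the filters was 0.0300, 0.0307 and 0.0295% in inhibited cells on plates 1 to 3, against 0.0341, 0.0383 and 0.0349% in control cells. Inhibited cells were lower on 3 of 3 plates, with a mean difference of -0.00573 percentage points (exact two-sided sign permutation over plates, p = 0.25, the smallest that 3 plates allow). Deleted cells had 0.0353, 0.0395 and 0.0304% on plates 1 to 3, against the same control values, a mean difference of -0.00073 percentage points (exact p = 1.0). Deleted cells were above control on 2 plates and below it on 1. The 55 keratin-rich high wells were 6 of 17, 4 of 15 and 4 of 18 high wells of deleted cells on plates 1 to 3. They were 8 of 22, 4 of 21 and 1 of 18 in inhibited cells, and 14 of 26, 7 of 22 and 7 of 14 in control cells. Whether these shares differ between types was not tested.

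The difference between high and rest wells was then compared between types. In edgeR's quasi-likelihood test, it differed between deleted and control cells for 0 of 11667 genes (0.0%), and between inhibited and control cells for 0 (0.0%), with 451 and 472 genes at an unadjusted p under 0.05. DESeq2 called 8 and 11 genes. Fitted within a type, Krt18 had log2 differences of 3.40 in deleted, 3.13 in inhibited and 3.94 in control cells. Tinagl1 had 3.44 in deleted, 2.31 in inhibited and 3.37 in control cells, and Lrp2 had 2.30 in deleted, 1.93 in inhibited and 1.71 in control cells. Dppa5a had -1.42 in deleted, -1.34 in inhibited and -1.32 in control cells, the narrowest spread of these 4. The absence of calls does not show that the types were alike.

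**Figure D5:**
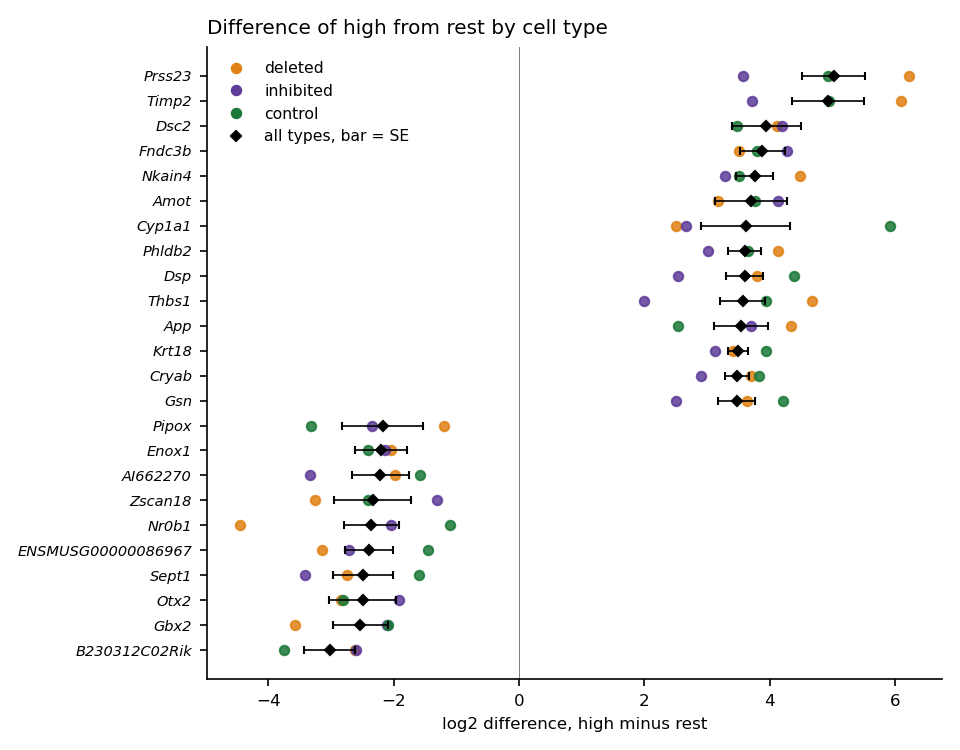
Log2 difference of high minus rest for 14 of the 15 largest rises and the 10 largest falls, fitted within deleted, inhibited and control cells and over all types. The 3 types lie on the same side of 0 for each of these genes, and no difference between types passed edgeR's test.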

How the data were processed

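Single cells were dispensed into the wells of 3 plates, and the deposited tables hold raw UMI counts per gene and well, with the cell type of each well in a second table of well totals, also counts, from the authors' pipeline. STAR 2.5.2b, featureCounts and Subread 1.4.6-p1 with mm10 are named in the submitters' processing notes; their settings, the strand and the treatment of doublets are not given in the sources used here, and no doublets were removed here. Of 29267 gene IDs, 28641 had a name.

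Wells were filtered and classed as the report states. Counts were summed per plate, type and class and tested with edgeR 4.0.16 (R 4.3.3; TMM scaling, filterByExpr by class, quasi-likelihood F test, Benjamini-Hochberg adjustment over all tested genes), with the 9 plate and type combinations as a block, since high and rest wells of a pair come from the same plate and cells. Pairs on 1 plate share it, which an alternative with types summed covers. Standard errors come from the F statistic. CPM use TMM library sizes, and the score genes were left out. The sums of high wells were smaller than those of rest wells, so that low genes are measured less precisely in high. DESeq2 1.42.0, other scalings, filters, classes and left-out plates were alternatives. The alternatives without keratin-rich wells, without wells with endoderm regulators or without the top 1% by score, under 10% mitochondrial UMIs, with rest at the median and with classes by dispense source were chosen after seeing the data. The code was tested on simulated counts.

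The members and gene lists were chosen with earlier results of these data known. Named genes were Kmt2a, the 15 largest rises and 10 largest falls (adjusted p under 0.05, the same sign in 9 pairs, a mean of at least 10 CPM), up to 4 members of each list by smallest p, and up to 3 called genes per difference between types. Some genes that meet this rule are counted and not reported here by name. Intervals cover counting error only.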

Additional observations from a re-analysis of the deposited data

How the results depend on the processing

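Of the 95 called genes named in the text, none changed direction under any alternative that tested it, and 45 were called without each plate in turn. Against 820 genes higher, DESeq2 called 1296, and 346 were higher without the keratin-rich wells. Against 872 lower, 363 were lower with rest as the 5% of wells at the median, 444 with types summed per plate, 521 with wells thinned to 12000 UMIs and 250 without the keratin-rich wells. Leaving out single plates gave 406 to 728 higher and 244 to 571 lower. The pairing of high and rest by plate and type is part of the design; without this block, 1075 genes were higher and 679 lower, and 0 differed between types. RLE scaling gave 912 higher and 726 lower, and no filter on low counts 638 and 1228. For the difference between deleted and control cells, DESeq2 called 8 genes and no filter 4; between inhibited and control cells, DESeq2 called 11, no filter 6 and the fit without the deepest 5% of wells 1. The score of deleted minus control cells changed sign to 0.00278 (thinned), 0.00251 (mean over wells) and, without single plates, ranged between -0.00169 and 0.00116 percentage points. Lama1 passed with the top 10% as high (1.36) and thinned (1.56), and Lamc1 ranged between 0.75 and 1.54 without single plates. Without single plates, the uncalled Sox7 ranged between -0.64 and 0.16 and Cdx2 between -0.65 and 0.19, and Cdx2 also changed sign with the top 10% as high (0.23) and under 10% mitochondrial UMIs (0.13). The cause of these shifts was not tested. The 14 to 26 wells in a high sum limit what can be seen of low genes.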
